A study of Mus musculus with 8 samples.

Results

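Immediate early genes are switched on within minutes of a stimulus without new protein synthesis, and 10 of them were examined across the 8 arrays of this series: Fos, Fosb, Jun, Junb, Jund, Atf3, Ier2, Egr1, Dusp1 and Zfp36. The members were taken by name, as all probes that the platform annotation assigns to these genes, which gave 11 probes of 45281 on the array and 10 genes of 16465 named. At least 1 probe of each of the 10 genes was above background often enough to be tested, and the exception among the probes was the second Junb probe. The values that follow are normalized log2 intensities unless stated otherwise, and a probe counted as above background (detected) on an array when its detection p was under 0.05.

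The RNA came from EGFP-positive cells of mouse embryos at E12.5, strain C57BL/6J;129, and the tissue was the vertebral column. Columns were dissected, dissociated enzymatically and sorted by flow cytometry for EGFP, a green fluorescent reporter placed in the Bapx1 locus, and every array therefore holds RNA of dissociated and sorted cells. Bapx1, now named Nkx3-2, encodes a homeodomain factor of the sclerotome and early cartilage. The 4 wildtype arrays carried the Bapx1tm2.Tlu allele, in which EGFP sits in the 3′ untranslated region behind an internal ribosome entry site and Bapx1 protein is still made, and the study writes these embryos as heterozygous (Bapx1+/tm2.Tlu). The 4 null arrays were homozygous for Bapx1tm4.Tlu, in which EGFP was inserted after the start codon. The number of reporter copies and the way EGFP is translated differ along with genotype, so a difference between genotypes in the cells collected cannot be told apart from one in the reporter. No array of undissociated tissue was analysed here, so a rise of these genes through dissociation and sorting was not tested. In bulk RNA of this kind, fewer cells that express a gene and less of its RNA per cell cannot be told apart.

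Fos, Fosb, Jun, Junb, Jund and Atf3 encode leucine zipper proteins that pair with each other as AP-1 and related dimers and bind DNA to switch on a second wave of genes. Egr1 encodes a zinc finger factor, and Ier2 a nuclear protein of the same fast response. Dusp1 encodes a phosphatase that turns off the MAP kinases which induce these genes, and Zfp36 encodes tristetraprolin, which binds AU-rich elements and speeds the decay of short-lived messengers. Many of the genes are induced through serum response factor with its ternary complex partners or through CREB, whose site is the cyclic AMP response element (CRE), and enzymatic dissociation of tissue is known to induce several of them.

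The letters of that element are shown here because they lie in the promoters of several of the 10 genes. Some of these varied widely between arrays (Fos, Fosb and Junb) and some did not (Atf3 and Dusp1). A promoter of 300 bases, from 250 before the start of the gene to 50 after it, was in the RefSeq table (build GRCm38.p6) for 8 of the 10 genes, all but Ier2 and Egr1. The core TGACG was present on either strand in 5 of these 8, those of Fos, Fosb, Junb, Atf3 and Dusp1, and in 20.8% of 32851 promoters of the same length. The lines give 30 bases around 1 core of each gene, read 5′ to 3′ on the strand of the gene, with the core in capitals (in Atf3 the core lies on the opposite strand and reads CGTCA).
Fos, chr12:85473812-85473841, plus strand: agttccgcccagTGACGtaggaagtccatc
Fosb, chr7:19310088-19310117, minus strand: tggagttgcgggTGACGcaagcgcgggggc
Junb, chr8:84978837-84978866, minus strand: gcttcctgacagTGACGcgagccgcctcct
Atf3, chr1:191183323-191183352, minus strand: ttaatagcattaCGTCAgcctgggattggt
Dusp1, chr17:26508598-26508627, minus strand: cggtagggcgggTGACGtcaccgcccggtc
The core in Fos begins 66 bases before the start, that in Fosb 60, that in Junb 106, that in Atf3 7 and that in Dusp1 143. The Dusp1 core is part of the full palindrome TGACGTCA, which contains the core on both strands and was found in 1.79% of all promoters. The AP-1 letters TGANTCA, searched on both strands, were in none of the 8 windows and in 7.81% of all promoters, and the CArG box, the site of serum response factor, was in that of Zfp36 and in 1.63% of all. Sites more than 250 bases before the start, and the promoters of Ier2 and Egr1, were not searched. A gene without the letters here may thus still have such a site elsewhere. A match of letters is a description of the window and not a site shown to be bound.

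Some features of the arrays touch what follows. The share of probes above background was 40.97% to 45.78%, lowest on wildtype replicate 2. That array and null replicate 1 correlated less with the other arrays of their genotype (mean r of 0.969 and 0.972) than the other 6 did (0.979 to 0.985). The sample titles read WTBapx1 and HomoBapx1, and the study's terms wildtype and null are used for them here. The Nkx3-2 probe ILMN_2687592 was above background on 0 of 4 wildtype arrays and on 4 of 4 null arrays, and since the sources used here do not give its place on the altered alleles, it checks no label. The study calls the replicates biological, and the sources used here do not say whether each came from 1 embryo or from several.

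Fos, the AP-1 subunit most used as a sign of recent stimulation, differed more between arrays of the same genotype than between genotypes. It read 5.99, 10.89, 7.82 and 9.06 on wildtype replicates 1 to 4 and 6.87, 8.99, 10.90 and 9.41 on null replicates 1 to 4. Wildtype replicate 2 and null replicate 3 were the highest, replicate 1 of each genotype was the lowest, and the genotypes overlapped across nearly their whole range. The highest array stood 29.9-fold above the lowest in the wildtype and 16.2-fold in the null on the normalized scale. The same spread was present before normalization, where the background-subtracted intensity ran from 50.6 to 1778 in the wildtype and from 74.3 to 2205 in the null. Its pooled within-genotype SD of 1.87 was larger than that of 99.94% of all 19965 tested probes. The means were 8.44 ± 2.07 and 9.04 ± 1.66 (SD, n = 4 each), and the difference of 0.60 had a 95% interval from −1.73 to 2.94 (limma, adjusted p = 0.755; exact permutation p = 0.686, two-sided). It turned to −0.21 without wildtype replicate 1 and to −0.01 without null replicate 3.

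**Figure D1:**
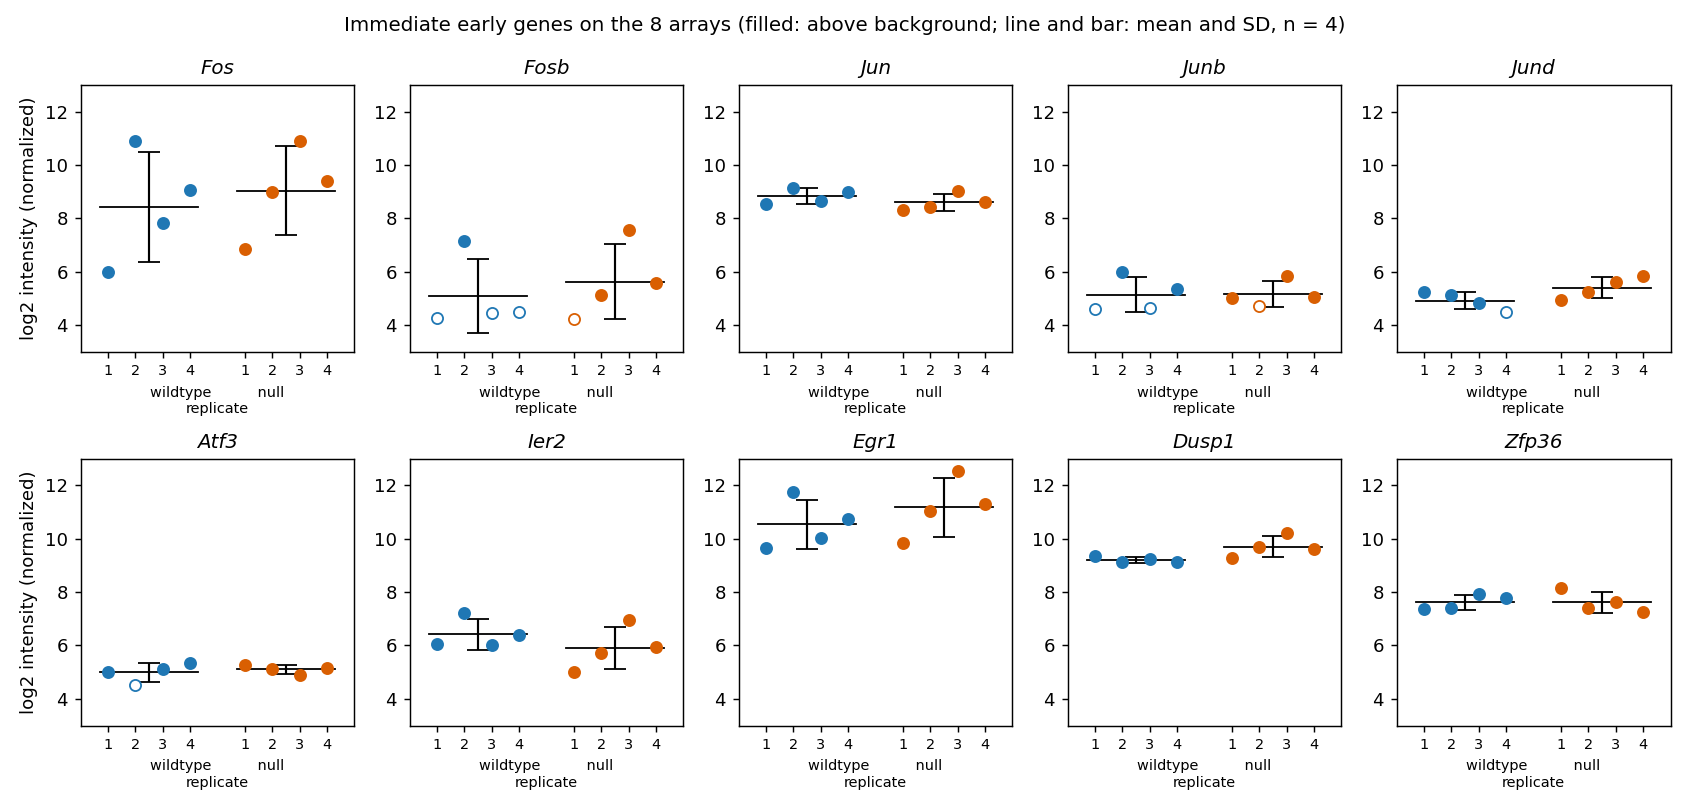
Normalized log2 intensity of the 10 genes (1 panel each, the same vertical axis) on wildtype replicates 1 to 4 (blue) and null replicates 1 to 4 (orange). Filled points were above background, open points were not, and the line and bar give the mean and SD of 4 arrays; Fos spans 5.99 to 10.90, while Dusp1, Zfp36, Atf3 and Jun stay within narrower bands.

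Fosb, a close relative of Fos with the same partners, followed a like course at the edge of detection. It read 4.28, 7.17, 4.44 and 4.48 on the wildtype arrays and 4.24, 5.13, 7.57 and 5.58 on the null arrays. It was above background on wildtype replicate 2 alone among the wildtype and on null replicates 2, 3 and 4, so the remaining 4 values give only the background. Before normalization wildtype replicate 2 stood at 102 and the other wildtype arrays between −6.8 and 2.1. The means were 5.09 ± 1.39 and 5.63 ± 1.41 (SD, n = 4 each) and the difference 0.54 (95% interval −1.21 to 2.28; limma, adjusted p = 0.706). Its within-genotype SD was 1.40, higher than in 99.75% of tested probes.

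Jun, the main partner of Fos in AP-1, moved over a narrower range than Fos. It read 8.52, 9.15, 8.66 and 9.0 in the wildtype and 8.31, 8.42, 9.04 and 8.62 in the null, above background throughout. Its order was that of Fos in both genotypes, with wildtype replicate 2 and null replicate 3 on top and replicate 1 at the bottom, but its within-genotype SD was 0.31, higher than in 73.4% of tested probes. The difference was −0.24 (95% interval −0.67 to 0.20; limma, adjusted p = 0.493).

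Junb, a Jun relative that can restrain growth-promoting AP-1, lay near background. Its tested probe read 4.61, 5.98, 4.63 and 5.35 in the wildtype, where replicates 2 and 4 were above background, and 5.02, 4.72, 5.85 and 5.04 in the null, where replicate 2 was not. The same arrays as for Fos were highest, and the within-genotype SD was 0.58, higher than in 95.88% of tested probes. The means were 5.14 ± 0.66 and 5.16 ± 0.48 (SD, n = 4 each; difference 0.01, 95% interval −0.73 to 0.76; limma, adjusted p = 0.988). A second Junb probe, ILMN_1254833, was above background on none of the 8 arrays, read 4.31 to 4.68 and was not tested.

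Jund, the Jun relative that is expressed in resting cells, did not follow Fos. It read 5.23, 5.13, 4.83 and 4.49 in the wildtype, where replicate 4 was not above background, and 4.93, 5.25, 5.62 and 5.83 in the null. Null replicate 4 was the highest and wildtype replicate 4 the lowest. The means were 4.92 ± 0.33 and 5.41 ± 0.40 (SD, n = 4 each), and the difference of 0.49 (95% interval −0.02 to 0.99) did not pass the test (limma, adjusted p = 0.242; exact permutation p = 0.114, two-sided).

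Atf3, a stress-induced CREB family member that often represses its targets, lay near background on every array. It read 4.99, 4.52, 5.12 and 5.36 in the wildtype, with replicate 2 not above background, and 5.26, 5.11, 4.88 and 5.16 in the null. The arrays highest in Fos, wildtype replicate 2 and null replicate 3, were the lowest in Atf3 within their genotype. The within-genotype SD was 0.27 and the difference 0.11 (95% interval −0.30 to 0.51; limma, adjusted p = 0.749).

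Egr1 and Ier2, of the same fast response but outside the AP-1 family, were above background on all arrays and followed Fos closely. Egr1 read 9.64, 11.74, 10.04 and 10.73 in the wildtype and 9.84, 11.03, 12.52 and 11.32 in the null. The order of the arrays was that of Fos in each genotype, with a 4.29-fold range in the wildtype and a 6.38-fold range in the null. The means were 10.54 ± 0.92 and 11.18 ± 1.10 (SD, n = 4 each), the difference 0.64 (95% interval −0.63 to 1.91; limma, adjusted p = 0.525) and the within-genotype SD 1.01, higher than in 99.29% of tested probes. Without null replicate 1 and wildtype replicate 2, the 2 arrays that correlated least with their groups, the difference was 1.49 (limma, adjusted p = 0.0423). These arrays held the highest wildtype value and the lowest null value of Egr1, so that leaving them out had to raise the difference, and in that fit 20.3% of all probes passed the threshold. Without null replicate 1 alone the difference was 1.08 (limma, adjusted p = 0.182), and without wildtype replicate 2 alone it was 1.04 (adjusted p = 0.313 by the same test).

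Ier2 read 6.04, 7.22, 6.00 and 6.40 in the wildtype and 5.02, 5.71, 6.94 and 5.94 in the null. Wildtype replicate 2 and null replicate 3 were again the highest, with ranges of 2.32-fold and 3.77-fold. Its means, 6.41 ± 0.56 and 5.90 ± 0.79 (SD, n = 4 each), gave a difference of −0.51 (95% interval −1.39 to 0.37; limma, adjusted p = 0.463), the opposite sign to Fos and Egr1. The within-genotype SD was 0.69, higher than in 97.73% of tested probes.

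Dusp1 and Zfp36 act as brakes on the response. Dusp1 read 9.37, 9.11, 9.23 and 9.12 in the wildtype and 9.27, 9.68, 10.21 and 9.63 in the null. Wildtype replicate 2, high in Fos, was the lowest of all 8 arrays, and every null array except replicate 1 lay above every wildtype array. Among the null arrays the order was that of Fos, from replicate 1 to replicate 3, apart from the close pair of replicates 2 and 4, and among the wildtype arrays it was not. The means of 9.21 ± 0.12 and 9.70 ± 0.39 (SD, n = 4 each) differed by 0.49 (95% interval 0.07 to 0.91), which reached an unadjusted limma p of 0.0254 but not the adjusted threshold (adjusted p = 0.178; exact permutation p = 0.0571, two-sided, with 0.0286 the smallest that the 70 splits can give). The difference passed the threshold without null replicate 1, at 0.63 (limma, adjusted p = 0.0345), in a fit that called 3185 of 19965 probes. Over all the alternatives run, its adjusted p ranged from 0.0251 to 0.81.

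Zfp36 read 7.36, 7.42, 7.93 and 7.79 in the wildtype and 8.15, 7.42, 7.63 and 7.25 in the null. Null replicate 1, the lowest null array for Fos, was the highest of all 8 for Zfp36, and the genotypes overlapped fully. The means were 7.62 ± 0.28 and 7.61 ± 0.39 (SD, n = 4 each; difference −0.01, 95% interval −0.48 to 0.46; limma, adjusted p = 0.984).

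Null against wildtype, none of the 10 tested genes passed the threshold (0 of 10 at a limma adjusted p under 0.05), where 0.781% of all tested probes did (156 of 19965). At an unadjusted limma p under 0.05 there was 1 of 10, Dusp1, against 21.7% of all probes, and by the unmoderated test that the study's methods name there were 0 of 10, against 18.8% of all probes, also at an unadjusted p under 0.05. In 0 of 10 genes did the genotypes not overlap, against 10.8% of all probes. The difference was above 0 in 7 of the 10 genes and in 44.9% of all probes, and its median was 0.30 against −0.04 over all probes. The unmoderated test was run on quantile normalized values, whereas the study's methods name scaling with the median absolute deviation as spread measure. With each array scaled by its median absolute deviation, which moved the median of all probes to −0.26, the sign turned for Fos, Egr1 and Dusp1. In that fit 1 probe in all passed the adjusted threshold. A p that misses the threshold does not show that the levels were alike.

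**Figure D2:**
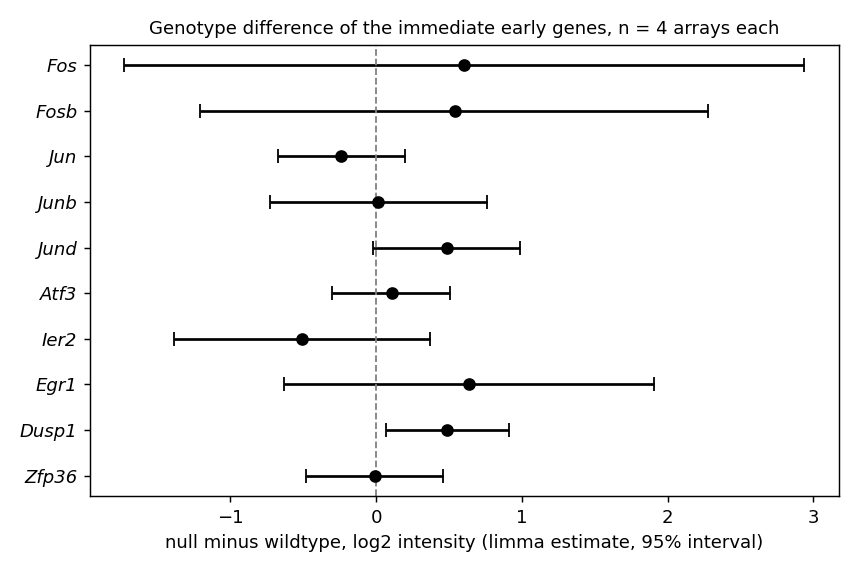
Null minus wildtype difference of each gene (horizontal axis, log2 intensity, limma estimate with its 95% interval, 4 arrays per genotype). The intervals of Fos, Fosb and Egr1 are the widest and cross 0, and that of Dusp1, from 0.07 to 0.91, is the one that does not.

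The spread between arrays of a genotype was the larger feature of these genes. The median within-genotype SD of the 10 genes was 0.47, against 0.23 over all tested probes. It lay above the 95th percentile of all probes (0.54) in 5 of 10 genes, Fos, Fosb, Egr1, Ier2 and Junb, and above the 99th percentile (0.93) in 3, Fos, Fosb and Egr1. Jun, Jund, Atf3, Dusp1 and Zfp36 had SDs of 0.27 to 0.37. With 1 array left out in turn the count above the 95th percentile was 3 to 5, at 3 (Fos, Fosb and Egr1) without null replicate 3. Without wildtype replicate 2 and null replicate 3, the arrays highest in Fos, it was 2, Fos and Egr1. Several lists of cell type markers, set out below, spread as widely. Their median SD was 0.54 for neurons and for skeletal muscle, 0.57 for endothelium, 0.63 for leukocytes and 1.12 for red blood cells. The counts above the 95th percentile were 4 of 9, 5 of 11, 5 of 8, 5 of 8 and 5 of 5 in that order. For sclerotome and cartilage, meninges, and pericytes and smooth muscle the median SD was 0.29, 0.33 and 0.20. Their counts were 2 of 11, 1 of 8 and 0 of 5.

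The arrays on which the genes were high were largely shared. Each value was set against the mean of its own genotype, so that genotype had no part in the comparison. Fos then stood at 2.45 on wildtype replicate 2 and at 1.85 on null replicate 3, and at −2.45 and −2.17 on replicate 1 of wildtype and null. Wildtype replicate 2 was the highest wildtype array and null replicate 3 the highest null array in 6 of 10 genes (Fos, Fosb, Egr1, Ier2, Jun and Junb), and in 11.1% of all tested probes. The fuller order, with replicate 1 of both genotypes also the lowest, was met by 4 of 10 genes (Fos, Fosb, Egr1 and Jun) and by 2.26% of all probes. Both patterns are the order of Fos itself, so Fos meets them by definition and they test nothing. Wildtype replicate 2 was the highest wildtype array in 36% of all probes, and null replicate 1 the lowest null array in 35.8%.

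**Figure D3:**
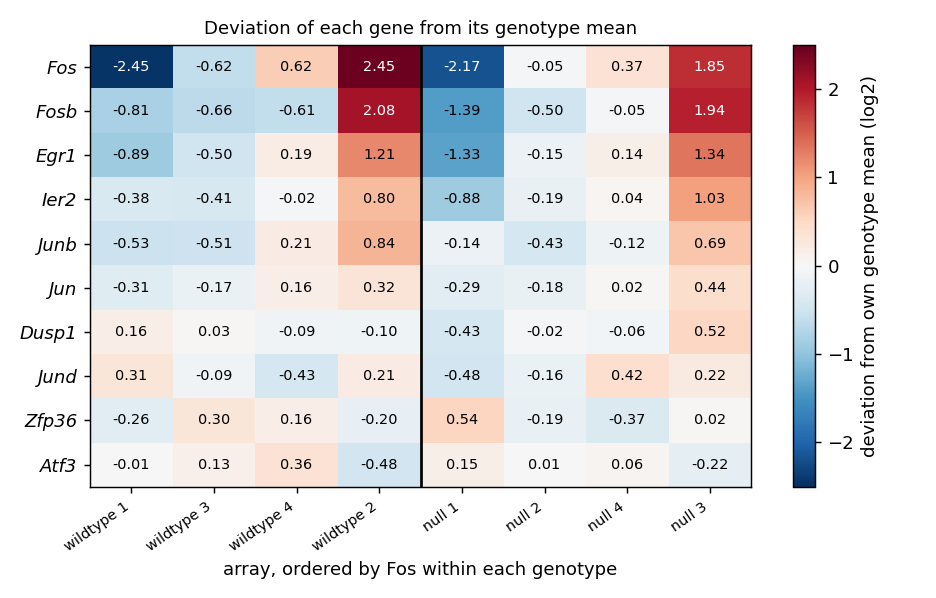
Deviation of each gene (rows) from the mean of its own genotype (log2, colour and printed value) on the 8 arrays (columns), ordered by Fos within wildtype and then within null. The upper 6 rows go from below 0 to above 0 in each genotype, from −2.45 to 2.45 for Fos in the wildtype, and the lower 4 rows do not share that order across both.

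The correlation of these deviations with those of Fos over the 8 arrays is given as a description. Pearson's r was 0.97 for Egr1, 0.93 for Jun, 0.90 for Ier2, 0.87 for Fosb and 0.83 for Junb, and Spearman's rho was 0.95, 0.95, 0.88, 0.90 and 0.93 in that order. With the 2 arrays farthest from the middle in Fos left out, which were replicate 1 of both genotypes, r was 0.99, 0.92, 0.97, 0.94 and 0.98. With wildtype replicate 2 and null replicate 1 left out, r remained at 0.91 for both Egr1 and Jun and was 0.72 for Ier2, 0.61 for Fosb and 0.84 for Junb. The other genes had r of 0.36 (Dusp1), 0.28 (Jund), −0.32 (Zfp36) and −0.56 (Atf3) over the 8 arrays. Without the same 2 arrays, wildtype replicate 2 and null replicate 1, these became 0.19, −0.53, 0.79 and 0.32, so that Zfp36 then lay above Ier2 and Fosb, and which genes followed Fos depended in part on those 2 arrays. Between other pairs r was 0.98 for Egr1 and Ier2, 0.97 for Fosb and Ier2 and 0.96 for Egr1 and Jun, and it was −0.84 for Atf3 and Fosb. The points of every pair share the same 8 hybridizations, and among all tested probes 5.46% had an r with Fos of at least 0.8.

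Markers of the cells that the sort could hold were set beside this order. Of 8 marker lists, the summed linear level was lowest on wildtype replicate 2 among the wildtype arrays in all 8, and on null replicate 3 among the null arrays in 2, endothelium and meninges. For 12 neuronal markers the sum was 1485 to 2447 in the wildtype and 2530 to 4274 in the null, with Nefl and Snap25 above background nowhere, and the null arrays lowest and highest in Fos held 4240 and 4274. For 11 skeletal muscle markers it was 1027 to 2589 and 2019 to 6046, for 10 endothelial markers 404 to 801 and 1038 to 1868 (Tie1 above background nowhere, and Tek, at 6.08 ± 0.31 and 7.69 ± 0.64, the marker that rose, limma adjusted p = 0.0435), and for 11 leukocyte markers 308 to 982 and 435 to 1155 (Ptprc above background nowhere). For 6 markers of red blood cells it was 785 to 6573 and 1084 to 1810, with the maximum on wildtype replicate 4. For 8 markers each, meninges gave 42115 to 47624 and 41778 to 51065, with Vtn, Slc22a6 and Aldh1a1 the 3 markers that rose in the null, and pericytes and smooth muscle 2830 to 3570 and 3622 to 5655, with Cnn1 above background nowhere. Each of 11 markers of sclerotome and cartilage was above background on at least 2 arrays of each genotype, with Acan and Sox6 on 2 of 4 null arrays and Pax9 on 3 wildtype and 2 null arrays, and their sum was 33387 to 39832 in the wildtype and 17817 to 22072 in the null, where 7 of the 11 fell. The median r of each list with Fos was −0.41 to 0.27 over the 8 arrays, where Foxc1 (0.895) and Uncx (0.85) were the markers with an r of at least 0.8. Without wildtype replicate 2 and null replicate 1, r was 0.53 to 0.95 for leukocyte markers and 0.24 to 0.95 for skeletal muscle. It was 0.68 to 0.94 for red blood cells and 0.025 to 0.94 for neurons, and took both signs in the other lists. The part of cell mixture and of detection share in the spread of Fos was not tested.

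Other genes of the same pathways were read from lists, with 1 probe per gene. Of 12 tested genes of the AP-1 and CREB/ATF family, 0 rose and 0 fell, none had an SD above the 95th percentile and none had an r with Fos of 0.8. The smallest p-values were those of Atf5, a CREB/ATF member of the stress response (7.54 ± 0.22 to 8.19 ± 0.46, adjusted p = 0.150), and Creb1, the factor named for the CRE (6.43 ± 0.11 to 6.03 ± 0.24, adjusted p = 0.160; both limma, SD, n = 4 each). Of 4 tested genes of the EGR family and its NAB co-repressors, 0 rose and 0 fell, and neither Egr3, a relative of Egr1 (difference 0.24, SD 0.51, r with Fos −0.24), nor Nab1, a co-repressor of the EGR factors (0.14), passed the test (limma, adjusted p = 0.654 and 0.529).

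Among 11 tested feedback genes of ERK signalling, 0 rose and 0 fell, and the median difference was 0.48. At an unadjusted limma p under 0.05 there were 6 of the 11, beside 5 of 12 in the AP-1 and CREB/ATF family, 0 of 4 in the EGR list, 2 of 8 in the decay list, 11 of 33 in the wider list of immediate early genes, 2 of 11 in the SRF, TCF and ERK pathway and 9 of 16 heat shock and stress genes, against 21.7% of all probes. Dusp6, the ERK phosphatase induced by FGF signalling, had means of 10.72 ± 0.17 and 11.35 ± 0.25 (SD, n = 4 each; limma, adjusted p = 0.0814), and Spry2, an inhibitor of receptor tyrosine kinase signalling, of 5.23 ± 0.42 and 5.88 ± 0.10 (adjusted p = 0.125 in the same fit). Dusp10 was the member of this list with an SD above the 95th percentile (0.58), and its r with Fos was −0.15. Dusp5, an ERK phosphatase, had an r of 0.82, and of 0.24 without wildtype replicate 2 and null replicate 1. Of 8 tested genes of the ZFP36 family and mRNA decay, 0 rose and 0 fell. Their median SD was 0.16, and the smallest p-values were those of the anti-proliferative gene Btg1 (−0.32, limma, adjusted p = 0.139) and of Zfp36l1, which like Zfp36 binds AU-rich elements (0.28, adjusted p = 0.215).

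Of 33 tested genes in a wider list of immediate early genes, 0 rose and 1 fell. This was Ccn2 (also Ctgf), which encodes a matricellular protein made by chondrocytes and other connective tissue cells, at 11.69 ± 0.33 in the wildtype and 10.30 ± 0.21 in the null (SD, n = 4 each; limma, adjusted p = 0.0149). The SD was above the 95th percentile in 2 of the 33, Sgk1 (0.68) and Csrnp1 (0.64), whose r with Fos was −0.79 and 0.20. Cebpd, which encodes a leucine zipper factor of the acute response, was the gene of this list with an r of at least 0.8 (0.96), on an SD of 0.14. Gadd45b (−0.89) and Errfi1 (−0.86) ran against Fos, on SDs of 0.12 and 0.19, and the median r of the list was −0.07. Ier5, Klf10, Nr4a3, Myc, Arc and Pim1 had probes that did not pass the filter, and Btg2 of the decay list likewise.

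Of 11 tested genes of the SRF, TCF and ERK pathway, which acts on these promoters, 0 rose and 0 fell, with a median difference of 0 and a median SD of 0.20. Mapk8, which encodes the Jun kinase JNK1, differed by 0.36 (limma, adjusted p = 0.193) and Rps6ka5, a kinase of CREB and histone H3, by −0.41 (adjusted p = 0.194). Their r with Fos was 0.87 and −0.94, and Map2k2, which encodes a kinase that activates ERK, had an r of 0.82. The SDs of Mapk8, Rps6ka5 and Map2k2 were 0.19, 0.24 and 0.20. Without wildtype replicate 2 and null replicate 1 their r became 0.64, −0.82 and 0.505. Of 16 tested heat shock and stress genes, 0 rose and 0 fell, and Hmox1, the heme oxygenase induced by oxidative stress, had an SD above the 95th percentile (0.94, r with Fos −0.36). Dnaja1, a co-chaperone of HSP70, read 4.89 ± 0.41 and 5.94 ± 0.28 (SD, n = 4 each; limma, adjusted p = 0.0583), and Txnip, an inhibitor of thioredoxin, 10.55 ± 0.34 and 11.13 ± 0.17 (adjusted p = 0.125 in the same fit). The r of Txnip with Fos was −0.93. Both genes for the inducible HSP70, Hspa1a and Hspa1b, did not pass the filter.

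**Figure D4:**
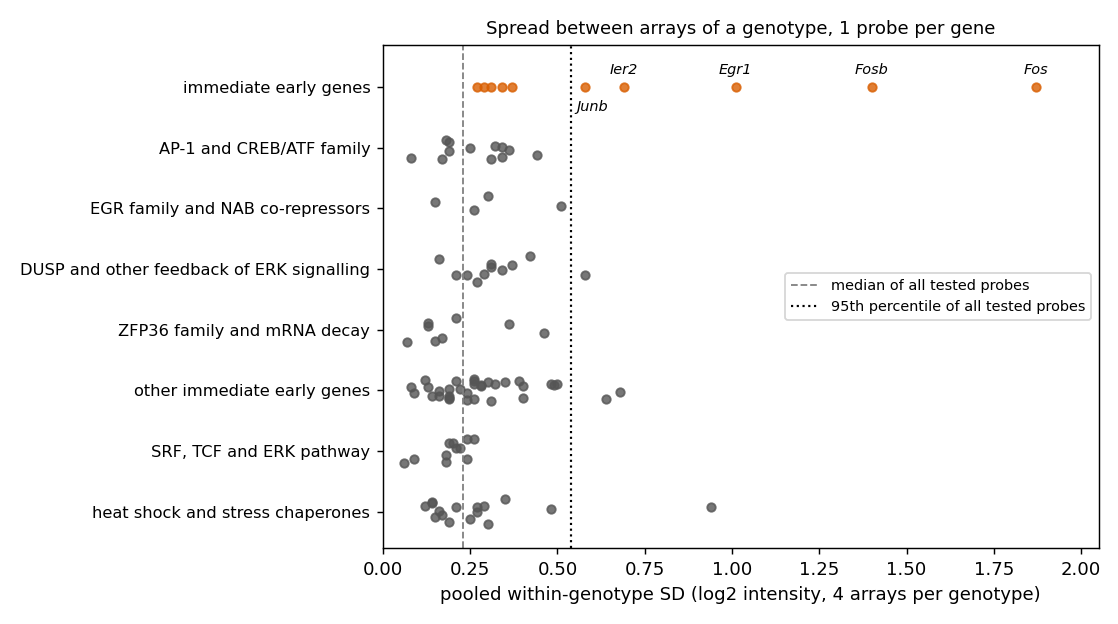
Pooled within-genotype SD (horizontal axis, log2 intensity, 4 arrays per genotype) of each tested gene of the 10 immediate early genes (orange) and of 7 related lists (grey, scattered vertically for sight). The dashed line is the median of all tested probes (0.23) and the dotted line their 95th percentile (0.54); Fos at 1.87, Fosb at 1.40 and Egr1 at 1.01 lie farthest to the right. The lists of cell type markers are not drawn.

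The genes most like Fos across the arrays were sought among 4773 tested probes with 1 gene name and a within-genotype SD of at least 0.3, by r of the deviations over the 8 arrays. The 10 highest that were not members were Msantd3 (0.995), Dlg3 (0.981), Fadd (0.975), Ptbp1 (0.972), Lsm2 (0.969), Cdc25c (0.969), Trmt12 (0.968), Fbxl15 (0.968), Trip13 (0.967) and Kif15 (0.965). With wildtype replicate 2 and null replicate 1 left out, their r was 0.889 to 0.989. Their SDs were 0.30 to 0.59, below those of Fos, Fosb, Egr1 and Ier2. Kif15, which encodes a kinesin, had the largest SD and Trip13, which encodes an ATPase, the smallest. Of the 4773 probes, 85 (1.78%) had an r of at least 0.9, and with 8 arrays a likeness of this size is a description.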

How the data were processed

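Total RNA of 8 samples was labelled as biotinylated cRNA and hybridized to Illumina mouse BeadChips. The authors subtracted the background in GenomeStudio, whose version the sources used here do not name, and the deposited intensity is linear, with 28.04% to 31.41% of values below 0 per array. The detection p-value deposited beside it was written so that bright probes are near 1 and was therefore subtracted from 1. The authors' deposited log2 table equals the log2 of intensity floored at 1 and centred on the array median, less 1 baseline per probe. The sources used here do not say which arrays set that baseline, and the direction is by the labels. Its column medians were −0.128, 0.165, 0 and 0.143 in the wildtype and 0, 0, −0.165 and −0.086 in the null. Probes of the intensity table, named by address only, were matched by value to the log2 table (35665 of 45281, 78.76%, tolerance 0.001 on the log2 scale). The tables shared 7 arrays, with null replicates 2, 3 and 4 of the log2 table being null replicates 1, 2 and 3 of the intensity table. The text numbers replicates as the intensity table does. The platform annotation named the genes (1 gene for 34885 probes, several for 18).

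Intensities were corrected with normexp (offset 16, negative control distribution inferred from detection p), quantile normalized and log2 transformed with limma 3.58.1 (R 4.3.3, statmod 1.5.0). The offset narrows differences of dim probes. A probe was tested if its detection p was under 0.05 on 4 or more arrays (19965 probes) with lmFit and eBayes, null against wildtype, with no covariate and Benjamini-Hochberg adjustment over all of them at 0.05. "Rose" and "fell" mean that this threshold was passed, higher or lower in the null. Exact permutation tests used all 70 splits. The pooled within-genotype SD has no test. In lists the tested probe of highest mean stood for a gene, and genes named were the 10 members, in each list the called genes (or the 2 genes lowest in p where none was called), and the 10 genes most like Fos. Genes of a list named for their SD or r were chosen after their values were seen. The members and lists were chosen with earlier results of these data known. Precision is limited by the number of arrays, and p-values measure the spread between these samples. Steps were tested on simulated data. Motif searches, matching and figures ran in Python 3.11.15 (matplotlib 3.10.9, pandas 2.3.3, scipy 1.17.1). Alternatives were other backgrounds, scalings and filters, array weights, a replicate block, the methods' ANOVA, the authors' log2 table and left-out arrays.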

Additional observations from a re-analysis of the deposited data

Results flagged for a closer look

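Of 20 groups of 4 arrays (10 genes in 2 genotypes), 1 held an array far from the others. Fosb in the wildtype stood at 7.17 on replicate 2, and the gap to the nearest wildtype array was 0.931 of the whole range, above the critical ratio of 0.829. For normally distributed values, chance exceeds the critical ratio in about 1 group of 20. The other wildtype values of Fosb were not above background and give only the background, so that rate need not hold here.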

How the results depend on the processing

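The count of probes called, 156 (77 higher and 79 lower in the null), was 99 with a floor of 16 in place of normexp, 1 with scaling by the median absolute deviation, 75 with no filter, 6190 with array weights, 16 in the authors' log2 table (3 higher), and 3763 and 12 by the methods' ANOVA, unadjusted and after Benjamini-Hochberg. It was 21 to 3185 with 1 array left out, 3185 without null replicate 1, and 4048 without that array and wildtype replicate 2. Median centring gave 109, of which 87 were higher in the null, and moved the median of all probes to 0.19. With the replicate number as a block it was 20. Deviations of same-numbered arrays correlated at −0.049, −0.107, −0.195 and 0.036. The largest r between a wildtype and a null array was 0.252, for wildtype replicate 2 and null replicate 3. Such values cannot tell whether samples shared a litter or a day, and the null numbering differs between the deposited tables. The block changed no call of a member. The members called, 0, became 2 with array weights (Dusp1, adjusted p = 0.0251; Jund, 0.62, adjusted p = 0.0386) and 2 without null replicate 1 and wildtype replicate 2 (Dusp1, 0.60, adjusted p = 0.0447; Egr1, 1.49, adjusted p = 0.0423), all by limma, and were 0 to 1 with 1 array left out. The median SD of 0.47 was 1.06 in the authors' log2 table and 0.42 to 0.49 with 1 array left out. That table differs in its arrays as well as its processing, which also holds for its count of 16. It lacks null replicate 4 of the intensity table, holds an unmatched null array in its place, and floors intensity at 1. The genes with an SD above the 95th percentile, 5, were 3 with scaling by the median absolute deviation, 3 when only probes detected on all 8 arrays were kept, and 3 to 5 with 1 array left out. An alternative chosen after seeing the data, without wildtype replicate 2 and null replicate 3, gave 53 probes called and 2 genes above that percentile, Fos and Egr1. Of the single differences, 20 values changed sign and none of these passed the threshold. They were −0.10 (Dusp1), −0.45 (Egr1) and −0.17 (Fos) with scaling by the median absolute deviation, 0.05 (Jun) and 0.30 (Zfp36) with median centring, −0.01 (Junb) at an offset of 50, and 0.30 (Zfp36) in the authors' log2 table. The others came with arrays left out. With 1 array, or null replicate 1 and wildtype replicate 2, left out, the differences were −0.21 to 2.14 (Fos), −0.11 to 1.69 (Fosb), −0.86 to 0.05 (Ier2), −0.22 to 0.34 (Junb), −0.10 to 0.23 (Atf3) and −0.26 to 0.11 (Zfp36). The cause of these shifts was not tested, and 188 further values kept direction and side of the threshold. Fosb, Junb, Jund and Atf3 lay near background, which limits what their values can show.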

Other observations

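The authors' log2 table holds 1 null array, its null replicate 1, that matched no array of the intensity table and entered none of the comparisons on intensity. On the scale of that table, where 1 baseline is removed per probe, Fos stood at 2.46 there, above its null replicates 2, 3 and 4 at −2.60, 0.02 and 1.97 and the wildtype arrays at −3.45, 2.09, −1.40 and −0.07. It stood at 4.25 for Fosb, 1.86 for Egr1, 1.85 for Ier2, 0.98 for Junb, −0.07 for Jun, 0.67 for Dusp1, 0.61 for Zfp36, 0.54 for Jund and 0.37 for Atf3. Of the 8 columns of that table it was the highest for Fos, Ier2, Zfp36 and Atf3, the second highest for Dusp1 and Jund, and equal to its null replicate 4 for Fosb and Egr1 to the 2 decimals given. The array has no counterpart by which these values could be checked.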
